A study of Mus musculus with 6 samples.

Results

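The genes described here are the receptor activity-modifying proteins (Ramps) and the adrenomedullin system, 7 genes out of 21966 in the RNA-seq table of this mouse colorectal cancer model. They are the peptides Adm and Adm2, the receptors Calcrl and Calcr, and the accessory proteins Ramp1, Ramp2 and Ramp3. The list was chosen on measured values, since it was drawn up around the higher FPKM of Ramp3 in PID+ cells, so all changes between the conditions are given as a description and without a test. Ramps are small membrane proteins that pair with class B receptors, carry them to the cell surface and set which peptide they bind. With Ramp1, the calcitonin receptor-like receptor Calcrl binds calcitonin gene-related peptide (CGRP), and with Ramp2 or Ramp3 it binds adrenomedullin. The calcitonin receptor Calcr needs no partner for calcitonin and becomes an amylin receptor when it is joined by a Ramp. These receptors signal mainly through the G protein Gs and cyclic AMP. In the gut, CGRP is best known from nerves, and adrenomedullin from the epithelium and from blood and lymphatic vessels, whose development requires it.

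Primary cell lines from colonic adenomas were compared, with 3 samples per condition. PID+ cells were from mice that combine CDX2P-NLS-Cre, a loxP allele of Apc deleted by it (APC Δ/+) and ROSA26-PID, in which Cre switches on the Pak inhibitor domain (PID), a fragment of Pak1 fused to GST that blocks the Group I Paks, together with eGFP from the Rosa26 locus. PID- cells came from littermates with the same Cre transgene and the same Apc deletion but without the PID allele. Both conditions thus carry the APC Δ/+ genotype, although the paper also calls the cells Apc-null. Cre is under the CDX2 promoter, which is active in gut epithelial cells, most of all in the colon. The parental Cre and Apc mice were C57BL6/J, and the mice of both cohorts were killed at an age of 8 months, without a separate age for those that gave the cell lines. The labels number the PID+ mice 4, 7 and 26 and the PID- mice 1, 2 and 3, and describe the PID- samples as normal and untreated, while the paper describes tumor cells, with the same numbers for PID+ and other numbers for PID- cells, and its methods call the 3 read sets of a condition sequencing runs. The PID transgene itself was not analysed here.

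The table gives 1 pooled value per gene and condition, in FPKM (fragments scaled to transcript length and library size), with the lower and upper bound of CuffDiff's confidence interval. There is no value per sample and therefore no spread between samples, and no difference below has a replicate check. The interval comes from CuffDiff's own error model. Both conditions had the status OK for 21959 genes, including all 7 listed genes. Changes are log2 ratios of FPKM + 1 in PID+ over PID- cells, on which changes of weakly expressed genes come out too small, and a gene was called when FPKM + 1 differed at least 3-fold. Of all genes, 229 (1.04%) were called higher in PID+ cells and 377 (1.72%) lower, together 606 (2.76%). When Gapdh was set equal in both conditions, these counts became 76 and 662, and 10.3% of the called genes were higher in place of 37.8%. That setting shifts the median log2 change of all genes to -0.079, and to -0.58 over genes whose mean FPKM reached 5. Changes at equal Gapdh given below are to be read beside these medians. The deposited intervals lay apart for 41 genes higher in PID+ cells (0.187%) and 119 genes lower (0.542%), together 160 genes (0.729%).

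Among the 7 listed genes, Ramp3 was called higher in PID+ cells, none was called lower, and the remaining 6 were not called. Ramp3 (ENSMUSG00000041046.7, chr11:6658521-6677475, plus strand, GRCm38) had an FPKM of 91.5 in PID+ cells, with an interval from 38.3 to 145, and of 7.69 in PID- cells, with an interval from 0 to 15.9. The log2 change was 3.41, the FPKM ratio was 11.9, and the lower bound in PID+ cells was 2.41 times the upper bound in PID- cells. It was the only listed gene with intervals apart, and by log2 change it ranked 10 among all genes. By level, Ramp3 ranked 931 of 21959 genes in PID+ against 8241 in PID- cells. These are the values on which the list was chosen. Closest to the threshold among the 6 genes not called was Ramp1, described below with the other Ramps.

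Levels of different genes can be set side by side in FPKM, which is per transcript length. In PID- cells the order was Ramp1, Ramp3, Adm, Adm2, Calcrl, Ramp2 and Calcr, and no neighbours in this order had intervals apart. In PID+ cells Ramp3 stood first, at 12.4 times the FPKM of Ramp1, and their intervals were apart. The others followed in the order Ramp1, Adm, Adm2, Ramp2, Calcrl and Calcr, and again no neighbours had intervals apart.

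**Figure D1:**
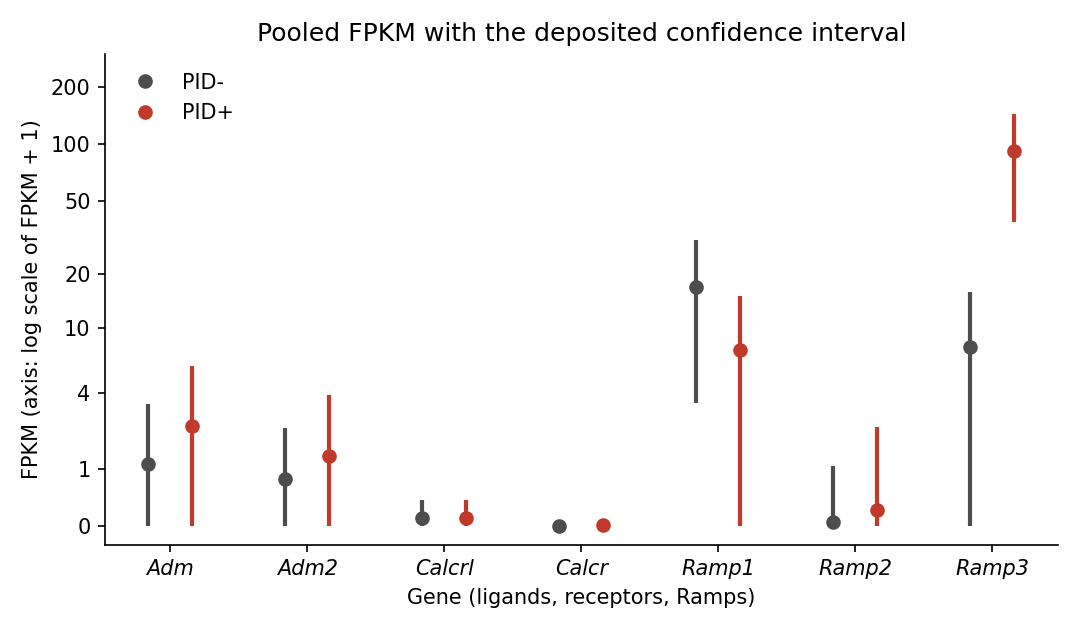
Pooled FPKM of the 7 listed genes (points) in PID- and PID+ cells with CuffDiff's deposited confidence interval (lines), on a log axis of FPKM + 1; each point is 1 value from 3 pooled samples. Ramp3 has intervals apart, with 91.5 in PID+ against 7.69 in PID- cells, and Calcrl, Calcr and Ramp2 lie below an FPKM of 0.3 in both conditions.

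The ligands were present at low levels. Adm (ENSMUSG00000030790.11, chr7:110627661-110629820, plus strand) encodes adrenomedullin, a vasodilator peptide. Its FPKM was 2.37 in PID+ cells (interval 0 to 5.92) against 1.12 in PID- cells (interval 0 to 3.36), and the log2 change was 0.67. Adm2 (ENSMUSG00000054136.5, chr15:89322720-89324731, plus strand), also called intermedin, had an FPKM of 1.33 in PID+ cells (interval 0 to 3.90) against 0.768 in PID- cells (interval 0 to 2.27), and the log2 change was 0.40. Both values were higher in PID+ cells, but by less than 3-fold and with overlapping intervals. An antisense gene, Gm28863, overlaps Adm in the annotation, and the library kit does not mark the strand, so that strand cannot separate the pair. In the search of shared sequence described below, 0 of 1341 windows of Adm occurred in a transcript of another gene. Reads within the annotated transcripts can therefore be told apart by position. In the list of calcitonin family ligands, which adds Calca, Calcb and Iapp, none of 5 genes was called and the median log2 change was 0.16, beside a median of 0 over all genes. This median had no steady sign. It was -0.082 after the median of each chromosome was subtracted, 0.052 when Gapdh was set equal and 0.66 with a pseudocount of 0.1. The highest mean FPKM in the list was that of Adm.

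The receptors that the peptides act on were near 0 in both conditions. Calcrl (ENSMUSG00000059588.10, chr2:84330626-84425411, minus strand) had an FPKM of 0.104 in PID+ cells (interval 0 to 0.368) against 0.101 in PID- cells (interval 0 to 0.363). From the value of a read in the table, this is about 33.8 fragments in PID+ against 44.7 in PID- cells if all came from the longest coding transcript. The FPKM of Ramp3 was 878 times that of Calcrl in PID+ cells and 76.2 times in PID- cells. Calcr (ENSMUSG00000023964.12, chr6:3685680-3764714, minus strand) was listed at 0 in PID- cells and at an FPKM of 0.0078 in PID+ cells. Both values correspond to at most 3 fragments, and no fold is given. At this depth the 2 receptors thus had traces of reads or none, and no difference between PID+ and PID- cells was detectable.

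Ramps are also reported to bind other receptors, mostly of class B. All 14 of these on the list, among them the receptors for VIP, glucagon, GLP-1, secretin and parathyroid hormone, had an FPKM below 1 in both conditions. Of these, 4 were listed at 0 in both, namely Ghrhr, Crhr1, Sctr and Casr. The highest mean was that of Vipr1, a receptor for VIP, with an FPKM of 0.0031 in PID+ against 0.712 in PID- cells and overlapping intervals. With values below 1, FPKM + 1 cannot differ 3-fold, so none of the 14 could be called. Their summed FPKM was 0.348 in PID+ against 1.30 in PID- cells.

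The accessory proteins are the 3 Ramps. Ramp1 (ENSMUSG00000034353.11, chr1:91179822-91225196, plus strand), the partner that makes Calcrl a CGRP receptor, had an FPKM of 7.40 in PID+ cells (interval 0 to 15.2) against 17.1 in PID- cells (interval 3.44 to 30.7). Its log2 change was -1.10, opposite in sign to that of Ramp3, below 3-fold and with overlapping intervals. When Gapdh was set equal, the log2 change of Ramp1 was -1.64, which passes 3-fold, and that of Ramp3 was 2.80. At that setting the median of all genes whose mean FPKM reached 5 was -0.58. Ramp2 (ENSMUSG00000001240.10, chr11:101246028-101259546, plus strand), the adrenomedullin partner best known from blood vessels, had an FPKM of 0.208 in PID+ against 0.0569 in PID- cells, or about 14.2 and 5.31 fragments, with overlapping intervals. It overlaps Vps25 on the same strand. The FPKM of the 3 Ramps summed to 99.2 in PID+ against 24.8 in PID- cells. Ramp3 made up 92.3% of this sum in PID+ cells and 31.0% in PID- cells, and Ramp1 made up 7.47% and 68.8%. The sum and the shares follow mostly from Ramp3, on whose values the list was chosen, so they are no separate result. The 7 genes of the list of receptors and accessory proteins also include Ackr3 and Crcp. Ackr3, an atypical receptor that takes up adrenomedullin as well as chemokines, had an FPKM of 10.5 in PID+ cells (interval 0.571 to 20.4) against 3.78 in PID- cells (interval 0.0529 to 7.51), and the log2 change was 1.27. Crcp, a protein that couples the CGRP receptor to signaling, had 25.6 and 32.7. Ackr3 and Crcp were not called and were chosen for mention after their values were seen.

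The sequence upstream of Ramp3 and Ramp1 is given because these Ramps had the highest levels and changes of opposite sign. Promoter windows of 300 bases, from 250 bases before to 50 bases after the start, were taken from RefSeq (GRCm38.p6) and matched 6 of the 7 listed genes, without Ramp2. Calcr has 2 windows, chr6:3763574-3763873 and chr6:3764664-3764963, named here in this order as its first and last. Motifs were searched on both strands, and no sites of different motifs overlapped in these windows. The letters CACCTG, an E-box that Snail and Zeb factors are known to bind, occur in 20.2% of 32851 such windows. They were found 1 time each in the windows of Ramp3 (chr11:6658283-6658582) and Ramp1 (chr1:91179572-91179871), 2 times in that of Adm2 and 1 time in the last of Calcr, and not for Calcrl or Adm. The hypoxia response core, ACGTG or GCGTG, occurs in 43.8% of the windows and was found 2 times for Ramp3, 2 times for Adm (chr7:110627407-110627706), 1 time for Calcrl and 0 times for Ramp1, Adm2 and Calcr. The core of the cyclic AMP response element, TGACG, occurs in 20.8% of the windows and was found 1 time for Ramp1, 2 times in the first and 1 time in the last window of Calcr, and 0 times for Ramp3, Calcrl, Adm and Adm2. The Tcf/Lef letters CTTTGAT, in 3.73% of all windows, were found in none of the listed genes. The GC box GGGCGG, in 35.7%, was found 3 times for Ramp3, 1 time each for Calcrl, Adm and the first window of Calcr, and 0 times for Ramp1 and Adm2. A match is a description of the letters and no evidence of binding. The bases before the annotated start are printed 5′ to 3′ on the plus strand, chr11:6658283-6658520 for Ramp3 and chr1:91179572-91179821 for Ramp1 (GRCm38.p6), with the E-box in capitals. Their GC content is 66.0% for Ramp3 and 54.0% for Ramp1.
Ramp3: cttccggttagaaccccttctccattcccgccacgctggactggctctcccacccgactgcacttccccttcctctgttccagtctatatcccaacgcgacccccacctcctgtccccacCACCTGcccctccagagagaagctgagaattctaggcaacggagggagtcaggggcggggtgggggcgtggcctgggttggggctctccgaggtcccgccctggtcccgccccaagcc
Ramp1: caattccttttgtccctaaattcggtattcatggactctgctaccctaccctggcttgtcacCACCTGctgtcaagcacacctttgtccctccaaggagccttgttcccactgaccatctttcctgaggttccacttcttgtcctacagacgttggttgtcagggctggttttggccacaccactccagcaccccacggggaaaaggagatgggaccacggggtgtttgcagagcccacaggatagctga

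None of the measured neighbours of Ramp3 on chromosome 11 was called. The 3 genes on one side were Nacad, Tbrg4 and Wap, and those on the other were Gm11983, Adcy1 and Igfbp1. Tbrg4 had an FPKM of 39.5 in PID+ against 26.04 in PID- cells, and Adcy1, an adenylyl cyclase, had 13.1 and 8.33. The other 4 were below an FPKM of 0.3 in both conditions. The median log2 change of chromosome 11 was 0.038, over 810 genes whose mean FPKM reached 5. A pseudogene on the opposite strand, Gm11978, overlaps the start of Ramp3, and 55 of the 1184 windows of 50 bases in the Ramp3 coding transcript (4.65%) also occur in its transcripts. Windows of Ramp1, Ramp2, Calcr, Adm and Adm2 occur in no transcript of another gene, and 16 of 4880 windows of Calcrl do.

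Over both conditions, the genes with levels nearest to those of Ramp3 were Mcpt8, Scnn1a, Ceacam1, Sdcbp2 and Gcnt3, by Euclidean distance of log2(FPKM + 1). With only 2 points per gene, this says no more than that their levels were similar. Mcpt8, named as a mast cell protease, was the nearest at a distance of 0.32, with an FPKM of 82.5 in PID+ against 9.60 in PID- cells. Scnn1a, a subunit of the epithelial sodium channel, had 67.1 and 9.47, and Ceacam1, an epithelial adhesion molecule, had 66.3 and 10.4. Sdcbp2, a syntenin, had 59.2 and 9.17, and Gcnt3, a glycosyltransferase of mucin glycans, had 61.6 and 10.2. All 5 had intervals apart.

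Peptide hormones of this family are cut from precursors, amidated and degraded by enzymes that were measured as a list of 16 genes. Here 1 gene was called higher in PID+ cells and none was called lower (6.25% called, beside 2.76% of all genes). The median log2 change was -0.0060, which became -0.53 when Gapdh was set equal and 0.0051 after the median of each chromosome was subtracted. The gene called was Mme (neprilysin), a surface peptidase that degrades adrenomedullin and CGRP. Mme had an FPKM of 80.4 in PID+ cells (interval 0 to 162) against 1.17 in PID- cells (interval 0 to 3.29), and the log2 change was 5.23. This ranked 2 among all genes, yet the intervals overlapped because the one in PID+ cells reached 0. The highest mean in the list was that of Cpe, a carboxypeptidase that trims prohormones, with 199 in PID+ against 147 in PID- cells. Pam, the enzyme that amidates adrenomedullin and CGRP, had 47.8 in PID+ against 87.1 in PID- cells with overlapping intervals, and was looked up after its value was seen.

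Downstream of the receptors, the list of Gs, adenylyl cyclase and PKA genes held 26 genes. Of these, 1 was called lower in PID+ cells and none higher (3.85% called, beside 2.76% of all genes). That gene was Adcy8, a calcium-stimulated adenylyl cyclase, with an FPKM of 0.450 in PID+ cells (interval 0 to 1.07) against 8.05 in PID- cells (interval 2.59 to 13.5). Its log2 change was -2.64, and the intervals were apart. The highest mean was that of Gnb2, a G protein beta subunit, with 330 in PID+ against 432 in PID- cells. The median log2 change of the list was -0.16. It was -0.59 when Gapdh was set equal, -0.28 with a pseudocount of 0.1 and -0.27 over the 22 genes whose mean FPKM reached 1. Among 13 genes of receptor desensitisation and trafficking, Arrb1, a beta-arrestin, was called lower, with 4.95 in PID+ against 18.2 in PID- cells (log2 change -1.69) and overlapping intervals. None was called higher, so that 7.69% of this list was called, beside 2.76% of all genes. The median of -0.021 moved to -0.49 at equal Gapdh, to -0.16 with a pseudocount of 0.1 and to 0.12 over the 10 genes whose mean FPKM reached 5, and the highest mean was that of Rab11a, a GTPase of recycling endosomes, with 189 and 247. None of 15 cyclic AMP phosphodiesterases was called, with the highest mean for Pde7a (27.7 and 18.2). Their median was -0.0023, which became -0.062 when Gapdh was set equal and 0.33 over the 5 genes whose mean FPKM reached 1.

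Genes that respond to cyclic AMP within a short time, such as Fos and the Nr4a receptors, were not called in either direction. Log2 changes were above 0 for 10 of the 12 and below 0 for 2. Fos had an FPKM of 10.4 in PID+ against 3.52 in PID- cells (log2 change 1.34). Nr4a1 had 13.8 and 5.68 (1.15) and Nr4a2 had 7.08 and 3.37 (0.89), all with overlapping intervals. The median of the 12 genes was 0.47. It was 0.61 after the median of each chromosome was subtracted and 0.63 over the 9 genes whose mean FPKM reached 5. When Gapdh was set equal, it was 0.035, beside -0.58 for all genes whose mean FPKM reached 5. The highest mean was that of Junb, with an FPKM of 105 in PID+ against 96.7 in PID- cells. Hypoxia induces Adm in many cells. Of 20 hypoxia response genes, 1 was called lower and none higher (5% called, beside 2.76% of all genes). Their median of -0.26 became -0.86 when Gapdh was set equal. Egln3, a prolyl hydroxylase that is itself induced by hypoxia, had an FPKM of 8.59 in PID+ cells (interval 1.68 to 15.5) against 65.6 in PID- cells (interval 28.8 to 102), and the log2 change was -2.80. Its intervals were apart. The highest mean was that of Ldha, with 838 in PID+ against 600 in PID- cells.

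**Figure D2:**
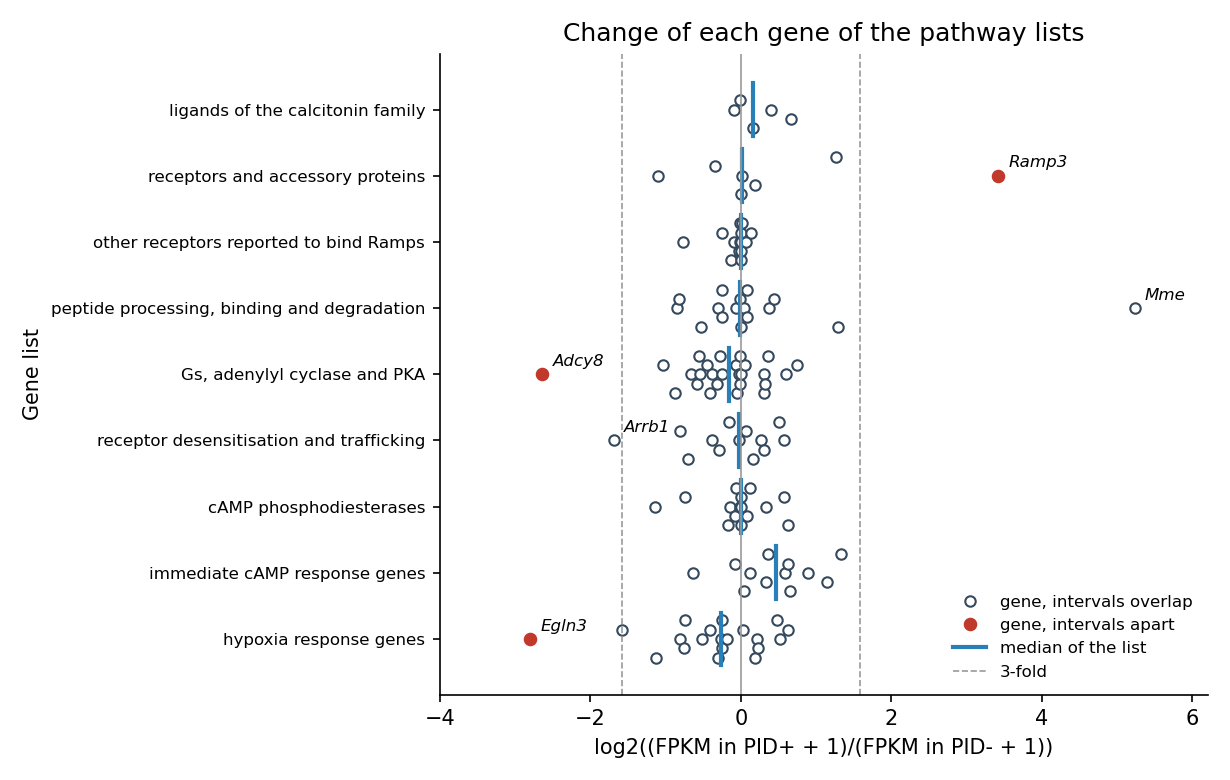
Log2 change of each gene of the 9 pathway lists (points), with the median of each list (blue line) and the 3-fold threshold (dashed lines); filled red points have deposited intervals apart and open points have overlapping intervals. Ramp3 at 3.41, Mme at 5.23, Adcy8 at -2.64, Arrb1 at -1.69 and Egln3 at -2.80 lie past 3-fold.

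Markers of cell types were set beside these values, since in bulk samples fewer cells of a type and less RNA per cell cannot be told apart. Of 12 epithelial markers, 2 were called higher in PID+ cells and 1 lower (25% called, beside 2.76% of all genes). Log2 changes were above 0 for 9 of the 12 and below 0 for 2. The summed FPKM of the list was 9122 in PID+ against 4983 in PID- cells. The highest mean was that of Krt19, with 2469 and 2073. Epcam had 401 in PID+ against 124 in PID- cells (log2 change 1.68), and Cldn7, a claudin, had 274 and 79.4 (log2 change 1.77). Cdx2, an intestinal transcription factor, had 0.542 in PID+ against 8.04 in PID- cells (log2 change -2.55). All 3 had overlapping intervals. Among the other markers of intestinal epithelium, in cells described as colonic tumor cells, Cdx1 was listed at 0 in both conditions and Vil1 was below an FPKM of 0.2. Lgals4, a galectin of the gut epithelium, had 1.86 and 3.43, and Krt20, a keratin of the differentiated intestinal epithelium, had 158 and 73.5. Of 8 fibroblast markers, 4 were called lower in PID+ cells and none higher (50% called, beside 2.76% of all genes). The sum was 2.98 in PID+ against 35.2 in PID- cells. Col1a1, with the highest mean, had 2.32 and 11.9 (log2 change -1.95), Col1a2 had 0.0654 and 11.9 with intervals apart (-3.60), Col3a1 had 0.339 and 6.35 (-2.46), and Dcn was listed at 0 in PID+ cells and had 2.39 in PID- cells. Lum was listed at 0 in both.

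Endothelial cells are a main site of Calcrl and Ramp2. Of 13 blood endothelial markers, 1 was called higher and 1 lower (15.4% called, beside 2.76% of all genes). Their sum was 31.6 in PID+ against 19.3 in PID- cells. The gene called higher was Ptprb, a receptor tyrosine phosphatase, with an FPKM of 14.7 in PID+ against 0.0244 in PID- cells (log2 change 3.94) with intervals apart. The higher sum in PID+ cells rests on Ptprb. The gene called lower was Flt1, a VEGF receptor, with 1.02 and 8.67 (log2 change -2.26) with intervals apart. The highest mean was that of Egfl7, with 11.4 and 8.82. Kdr, another VEGF receptor, had 3.33 in PID+ against 1.01 in PID- cells (log2 change 1.11) with overlapping intervals. The other 9 were below an FPKM of 0.3 in both conditions, among them Pecam1, Cdh5, Tek, Tie1 and Emcn, and Cldn5 was listed at 0 in both. None of 6 lymphatic endothelial markers was called. Their sum was 9.96 in PID+ against 8.57 in PID- cells, nearly all of it Flt4 (9.71 and 8.34), and Ccl21a was listed at 0.

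Of 9 smooth muscle and pericyte markers none was called, with sums of 9.20 and 15.1 and the highest mean for Acta2 (4.39 and 9.76). Without Acta2 the sums were 4.81 and 5.29. The others went both ways, with 3.30 and 0.998 for Notch3, a receptor of pericytes, 1.02 and 2.93 for Tagln, an actin-binding protein, and 0.0896 and 0.987 for Pdgfrb, a PDGF receptor. None of 12 leukocyte markers was called, with sums of 22.7 and 17.6, of which Cd68 made up 21.8 and 16.8, and Cpa3, Cd3e, Cd3g and Ncr1 were listed at 0 in both conditions. Among 7 platelet and megakaryocyte markers, Ppbp, a chemokine of platelets, was called higher, with an FPKM of 2321 in PID+ against 231 in PID- cells (log2 change 3.32) with intervals apart. This 1 gene is 14.3% of the list, beside 2.76% of all genes called, and the other 6 summed to 2.96 and 2.91. The part that the epithelial and fibroblast markers have in the difference of Ramp3 was not tested.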

How the data were processed

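RNA from 6 samples, 3 per condition, was selected for poly A and sequenced. The authors trimmed the reads (cutadapt), aligned them with TopHat and Bowtie2 to GRCm38.p3 and protein coding genes, merged the reads of each condition and deposited the pooled FPKM of CuffDiff with its confidence bounds. The deposited standard deviation follows from the upper bound and was not used. A test for values per sample had been planned for the case that the table held them, and was not run. Gene symbols came from the reference tables, 232 identifiers had none, and 7 genes without the status OK were left out. Fold changes used a pseudocount of 1 FPKM and a threshold of 3-fold. The value of a fragment was estimated from genes with 1 transcript, where 89.4% (PID+) and 90.9% (PID-) of low values fell within 0.1 of a whole number, against 20% without steps. The estimate used a length correction picked from 31 tried, while the 20% holds for a scale fixed beforehand. The FPKM of a fragment was in a ratio of 1.37 between PID+ and PID- cells, and fragment numbers rest on this estimate. At most 3 fragments counted as the floor.

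The members and lists were chosen with earlier results of these data known. Genes named are the 7 members, the genes of each list at least 3-fold changed or with intervals apart, the gene with the highest mean FPKM of each list, the 5 genes nearest to Ramp3, the 3 measured genes on either side of it and Gapdh, besides those said to be chosen afterwards, marker genes at or near 0, further markers set beside those (Kdr, Krt20, Lgals4, Notch3, Tagln and Pdgfrb) and receptors listed at 0. 1 list of cell type markers is not reported here. Positions and transcripts came from GENCODE M21 (GRCm38). The alternatives were scaling to the same total, upper quartile or Gapdh FPKM, a pseudocount of 0.1, a mean FPKM of at least 1 or 5, subtraction of chromosome medians, and intervals apart. The calculations were tested on simulated data, where 4.5-fold changes were put into genes whose mean FPKM reached 5. This checks the code and does not bear on the calls above. Python 3.11.15, numpy 2.4.6, pandas 2.3.3 and matplotlib 3.10.9 were used.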

Additional observations from a re-analysis of the deposited data

How the results depend on the processing

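The log2 change of Ramp3, on which the list was chosen, lay between 2.80 (equal Gapdh) and 3.56 (pseudocount of 0.1) in the 5 alternatives that recompute it. Filters on the mean FPKM and the rule of intervals apart leave the value of a gene as it is. Equal Gapdh alone took Ramp1 past 3-fold, at -1.64. Adm, Adm2 and Ramp2 stayed above 0 and under 3-fold. The log2 change of Calcrl was below 0 in 3 of these 5 and that of Calcr in 1. Genes called higher and lower numbered 621 and 795 with a pseudocount of 0.1, 76 and 662 with equal Gapdh, 144 and 221 at a mean FPKM of at least 5, which tests fewer genes, and 41 and 119 by intervals apart. The median log2 change of the 7 listed genes, 0.19, became 0.72 with a pseudocount of 0.1 and 0.075 with equal Gapdh. Over the 4 whose mean FPKM reached 1 it was 0.53, and over the 2 whose mean reached 5 it was 1.15. Equal Gapdh divides the FPKM in PID+ cells by 1.54 and shifts the median of all genes whose mean FPKM reached 5 to -0.58. Medians of the pathway lists moved by more than 0.1 in 20 of 60 alternatives. Filters left out genes of low FPKM, which then have no value. Leaving out each replicate was not run, because the table holds 1 pooled value per condition. No paired analysis was possible because the table holds 1 pooled value per condition and the labels name no pairs. The width of the intervals, which reach 0 in PID- cells for Ramp3, limits what can be said of any single fold.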
